A study of Homo sapiens with 6 samples.

Results

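Iron storage and transport in hepatocellular carcinoma (HCC) cells was followed through 10 genes: the ferritin chains FTH1 and FTL, the transferrin receptors TFRC and TFR2, transferrin itself (TF), the exporter ferroportin (SLC40A1), the importer DMT1 (SLC11A2), hepcidin (HAMP), iron regulatory protein 2 (IREB2) and the ferritin cargo receptor NCOA4. They were taken by symbol, and all 10 were present among the 60675 genes counted. FTH1 was selected on its measured counts, known to differ between library batches and not between conditions, so its values are described here without a test. The other 9 genes were chosen as a functional group with earlier results of the same comparison known, and no list-wide test was made.

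The RNA-seq data came from PLC/PRF/5 cells, an established human HCC line, with 3 control libraries and 3 libraries after knockdown of MTR4 (MTR4 KD), an RNA helicase of the nuclear exosome. MTR4 was silenced with lentiviral shRNA in puromycin-selected cells, and the study describes the RNA-seq as a comparison of cells before and after an inducible, doxycycline (Doxy)-dependent knockdown. The labels say neither whether Doxy was given nor whether the replicates were separate cultures, so p-values measure the spread between these libraries. Doxy-treated cells with a scramble shRNA were not analysed here, and an effect of Doxy cannot be told apart from that of the knockdown if only the MTR4 KD libraries received it.

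Gene counts summed to 60686786 to 72708682 per library. MTR4 (MTREX) had means of 78.0 ± 8.25 (control) and 45.8 ± 2.60 (MTR4 KD) CPM, read counts relative to TMM-scaled library size (SD, n = 3 each), without overlap and with a log2 fold change of -0.82 (adjusted p = 3.62e-07, edgeR). The share of all counted entries that were non-unique alignments split the libraries into 2 batches. It was 37.2%, 37.5% and 34.7% in control replicates 1 and 3 and MTR4 KD replicate 3 (here called the multi-mapped batch), and 14.8%, 16.7% and 18.2% in control replicate 2 and MTR4 KD replicates 1 and 2 (the uniquely mapped batch). Both names mark only the side of a 30% threshold, and the uniquely mapped batch still held non-unique reads. The 2 batches also differed in reads of low alignment quality, at 1.62% to 1.66% in the multi-mapped and 5.61% to 5.73% in the uniquely mapped batch. In the same order, reads not aligned were at 1.33% to 1.86% and 3.83% to 5.96%. Reads ambiguous between genes were at 5.89% to 6.37% and 7.79% to 8.29%. The labels name no such batch, and what sets the batches apart was not tested. Each batch held both conditions, and the main comparison was therefore edgeR's quasi-likelihood test with condition and library batch as terms over 18075 genes. All 12 hepatocyte or HCC markers examined were detected, with a summed level of 31099.6 to 33413.5 CPM in the control and 31795.4 to 34165.9 CPM in the MTR4 KD libraries. Of these markers 4 rose (ALB, APOA1, TTR and FGB) and 2 fell (KRT8 and KRT18) after knockdown, at an adjusted p under 0.05. In the same test 9.43% of all genes rose and 10.8% fell. The leukocyte, endothelial and fibroblast markers, each class on its own, summed to at most 12.4 CPM in any library. Erythroid markers summed to 18.3 CPM in MTR4 KD replicate 1 and to at most 0.0829 CPM in any control library.

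Cells take up transferrin-bound iron through TFRC, move it out of endosomes through DMT1, store it in ferritin shells of heavy (FTH1) and light (FTL) chains, and release it from ferritin when NCOA4 delivers the shells to lysosomes. Ferroportin is the only known iron exporter, and hepcidin, a liver hormone, removes it from the cell surface. Iron regulatory proteins bind stem-loops called iron-responsive elements when iron is scarce. Binding in a 5′ UTR blocks translation, as in ferritin and ferroportin mRNA, and binding in the 3′ UTR of TFRC mRNA protects it from decay. Hepatocytes secrete most of the transferrin and hepcidin of the blood and hold much of the body's ferritin.

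The elements are shown because a block of translation through them is not captured by a change in mRNA level. The search finds only a strict pattern and does not sort the genes by how they are controlled. A C, a stem of 5 bases, the loop CAGTGN and 5 bases that pair with the stem (G-T pairs allowed) were searched on the sense strand of the canonical GENCODE transcripts, lifted to GRCh37. Of the 10 genes, 5 held a match, and of 20274 coding transcripts 260 did (1.28%). A match in the 5′ UTR was present in 19 of 19484 transcripts (0.0975%), and 3 of the 19 were FTH1, FTL and SLC40A1. Each 30-base stretch is printed 5′ to 3′ with the loop in capitals, and the coordinates span the 17 bases from the C to the end of the stem.
FTH1, 5′ UTR, chr11:61735052-61735068, minus strand: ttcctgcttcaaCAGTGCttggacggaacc
FTL, 5′ UTR, chr19:49468598-49468614, plus strand: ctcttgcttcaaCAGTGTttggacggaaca
SLC40A1, 5′ UTR, chr2:190445393-190445409, minus strand: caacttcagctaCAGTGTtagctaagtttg
TFRC, 3′ UTR, chr3:195777856-195777872, minus strand: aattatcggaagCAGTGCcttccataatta
TFRC, 3′ UTR, chr3:195777452-195777468, minus strand: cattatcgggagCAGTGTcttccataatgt
TFRC, 3′ UTR, chr3:195777387-195777403, minus strand: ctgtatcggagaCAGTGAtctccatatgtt
TFRC, 3′ UTR, chr3:195777340-195777356, minus strand: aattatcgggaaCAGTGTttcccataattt
The other match was in TF, at base 16204 of an annotated transcript of 20166 bases, in a 3′ UTR of 18024 bases. Whether it acts as an iron-responsive element was not tested. No match in the other 5 genes says only that these letters are not in the canonical transcript. A read count per gene does not measure translation, and it adds up isoforms with and without an element.

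Among the 9 tested iron genes, TFR2, SLC40A1 and FTL rose and SLC11A2 and TFRC fell after MTR4 knockdown, with an adjusted p-value under 0.05 over all genes (edgeR's quasi-likelihood test, Benjamini-Hochberg). TF, HAMP, IREB2 and NCOA4 did not pass the test. In the same fit, 20.2% of all tested genes passed it, 9.43% as higher and 10.8% as lower, and the list was assembled with results of this comparison known, so the 5 calls among 9 genes are a count and nothing more. The median log2 fold change of the 9 genes was 0.11, and that of all tested genes was 0.0051. All 5 called genes had the same direction in both batches. Without the library batch in the model, TFR2 and SLC40A1 alone passed among the 9 genes, both as higher, beside 3.60% of all genes (1.48% as higher and 2.12% as lower).

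**Figure D1:**
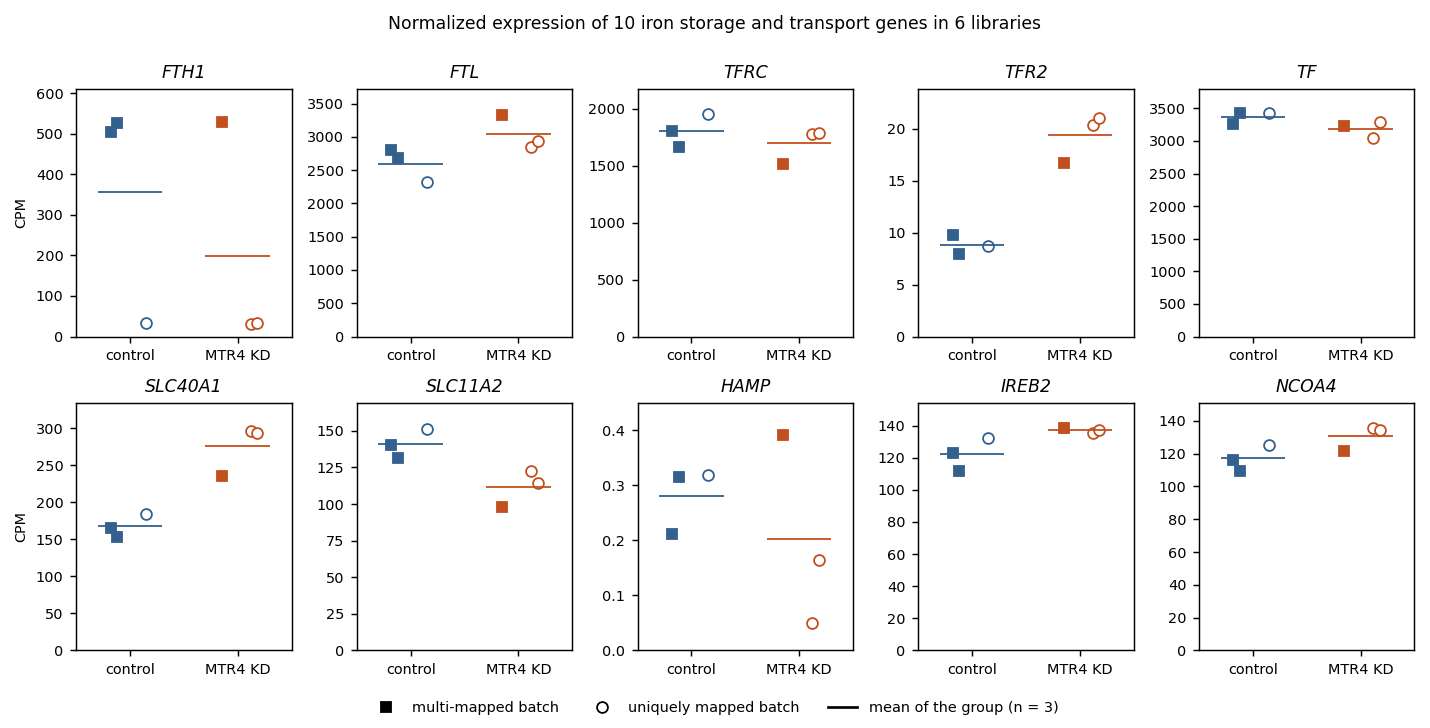
Normalized expression (CPM, linear axis from 0) of the 10 iron genes in each of the 6 libraries, with filled squares for the multi-mapped and open circles for the uniquely mapped batch, and a line at the mean of the 3 libraries of a group. FTH1 separates by batch. TFR2, SLC40A1, FTL, IREB2 and SLC11A2 have no overlap between conditions, as have 12.1% (MTR4 KD above) and 12.6% (below) of all tested genes. Of these, IREB2 did not pass the test (adjusted p = 0.0736, edgeR).

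The ferritin heavy chain carries the ferroxidase site that converts ferrous iron for storage. FTH1 (ENSG00000167996, chromosome 11 of GRCh38, 61964285 to 61967634) had 31083 and 31755 reads in control replicates 1 and 3 and 32458 in MTR4 KD replicate 3. It had 2487 reads in control replicate 2, and 1957 and 2296 in MTR4 KD replicates 1 and 2. The batches were thus far apart, and the conditions lay together within each batch. In CPM, the level was 504.1, 526.6 and 529.4 in the multi-mapped batch and 34.4, 31.9 and 34.4 in the other, in the same order of libraries. The mean of the first batch was 15.5 times that of the second. The fitted batch difference was 3.95 on the log2 scale, which ranked 32 by absolute value among the 18075 tested genes.

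Within the batches the log2 difference of FTH1 between MTR4 KD and control was 0.039 in the multi-mapped and -0.052 in the uniquely mapped batch. The fitted value with the library batch was -0.0017. Without the batch term it was -0.84, a value set by the 2 control libraries and the 1 MTR4 KD library in the batch with the high counts. With each library left out in turn, the fitted log2 fold change with the library batch stayed between -0.040 and 0.038. FTH1 was selected with this pattern known, so these values are no separate evidence that the knockdown left it unchanged.

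FTH1 has many processed pseudogenes, copies of its spliced mRNA elsewhere in the genome, and reads that fit more than 1 place are not counted on a gene here. A search of GRCh37 with the FTH1 transcript of 1203 bases found 11 other places that matched at least 50% of its length in 1 hit at an identity of 90% or more. It found 2 such places for FTL, 2 for NCOA4 and 0 for the other 7 genes. The annotated FTH1 gene also shares exonic bases with BEST1 on the opposite strand, and the strand setting of the counting is not given in the sources used here. The 25 counted FTH1 pseudogenes held 26 to 105 reads per library in all, or 0.0819% to 4.22% of the FTH1 count. With these reads added, the log2 ratio of the batch means was 3.91 in place of 3.95. The FTH1 level was 504.1 to 529.4 CPM in the multi-mapped batch, whose libraries had 34.7% to 37.5% non-unique alignments. It was 31.9 to 34.4 CPM in the uniquely mapped batch, at 14.8% to 18.2%. The other classes set aside went the opposite way. Ambiguous reads were at 5.89% to 6.37% in the multi-mapped and 7.79% to 8.29% in the uniquely mapped batch. Reads of low alignment quality and reads not aligned were also more frequent in the uniquely mapped batch. The part that any of these classes has in the FTH1 difference was not tested.

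The genes whose levels over the 6 libraries were most like FTH1 were DENND4B (Pearson's r = 0.9998) and RPS2 (r = 0.9997), followed by a pair of genes without a symbol and by ERI3 (r = 0.9989). They were ranked on log2(CPM + 0.5) among 9722 genes with a mean of at least 10 CPM. All points share the same batches, so likeness here is mostly likeness in the batch difference. For the other 9 iron genes the fitted batch difference was between -0.27 and 0.22 on the log2 scale, apart from HAMP, at 0.70 on few reads.

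**Figure D2:**
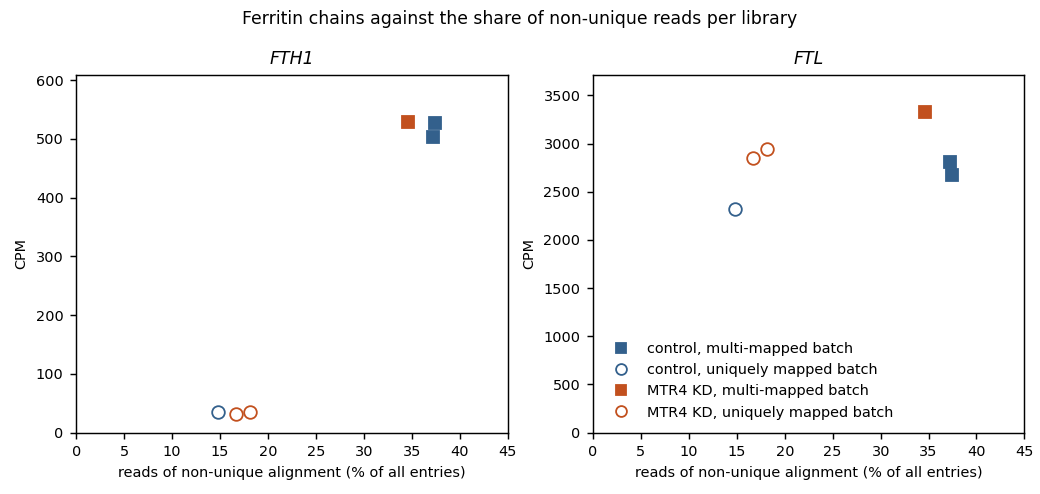
FTH1 and FTL expression (CPM, linear axis from 0) against the share of reads of non-unique alignment (% of all counted entries) in each library, by condition (color) and batch (filled squares for multi-mapped, open circles for uniquely mapped). FTH1 lies at 504.1 to 529.4 CPM in 3 libraries and at 31.9 to 34.4 CPM in the other 3, and FTL stays between 2316 and 3329 CPM.

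The ferritin light chain helps to form the iron core inside the shell. FTL (ENSG00000087086, chromosome 19, 48965309 to 48966879) was at 2806, 2316 and 2676 CPM in the control libraries (replicates 1 to 3) and at 2848, 2940 and 3329 CPM after knockdown. Every MTR4 KD library was above every control library, although control replicate 1 and MTR4 KD replicate 1, from different batches, lay close together. Means were 2599 ± 253.4 and 3039 ± 255.6 CPM (SD, n = 3 each), with a log2 fold change of 0.30 (SE 0.043, adjusted p = 0.000315, edgeR). The log2 difference was 0.28 and 0.32 within the batches. The call was lost without the batch term (log2 fold change 0.23, adjusted p = 0.263, edgeR). The 16 counted FTL pseudogenes held at most 0.0620% of the FTL reads.

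NCOA4 binds ferritin and brings it to the autophagosome. It was at 116.4, 125.3 and 109.7 CPM in the control libraries and at 135.9, 134.3 and 121.7 CPM in the MTR4 KD libraries (ENSG00000266412, chromosome 10, 46005088 to 46030623). The lowest MTR4 KD value was below the highest control value, and these came from different batches. The log2 fold change of 0.11 (SE 0.041) had an adjusted p of 0.0882 (edgeR). It was 0.11 within each of the batches, and between 0.090 and 0.13 with a library left out.

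TFRC, the receptor that takes up diferric transferrin, was the most weakly changed of the called genes. Its level (ENSG00000072274, chromosome 3, 196049284 to 196082090) was 1804, 1953 and 1668 CPM in the control libraries (replicates 1 to 3) against 1780, 1791 and 1516 CPM after knockdown. The groups overlapped, and only within a batch was each MTR4 KD library below each control library. The log2 fold change was -0.16 (SE 0.046, adjusted p = 0.0243, edgeR), with differences of -0.19 and -0.13 within the batches. The call did not hold without control replicate 1 (adjusted p = 0.0719, edgeR) or without MTR4 KD replicate 1 (0.105), 2 (0.0540) or 3 (0.175), nor without the batch term (0.642). TFRC shares exonic bases with a long noncoding RNA gene on the opposite strand.

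TFR2, a receptor of hepatocytes that senses transferrin saturation upstream of hepcidin, had the largest change of the list. TFR2 (ENSG00000106327, chromosome 7, 100620420 to 100641552) had 604, 632 and 480 reads in the control libraries and 1250, 1401 and 1020 reads in the MTR4 KD libraries. This was 9.79, 8.73 and 7.96 CPM against 20.4, 21.0 and 16.6 CPM, with a wide gap between the groups. Means were 8.83 ± 0.922 and 19.3 ± 2.35 CPM (SD, n = 3 each). The log2 fold change was 1.07 (SE 0.097, adjusted p = 6.10e-06, edgeR), or 2.11-fold. TFR2 was the 1 iron gene of the 9 called with a fold change over 2, which 0.675% of all genes were as higher and 1.24% as lower (0.321% and 0.509% without the batch term). Its log2 fold change was 0.90 to 1.26 with a library left out, and under 2-fold (0.90) without control replicate 2. Within the multi-mapped and the uniquely mapped batch the log2 difference was 0.88 and 1.20.

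TF, the iron carrier that hepatocytes secrete, did not pass the test. TF (ENSG00000091513, chromosome 3, 133661998 to 133796641) was at 3254, 3431 and 3425 CPM in the control libraries and at 3046, 3289 and 3227 CPM in the MTR4 KD libraries. The ranges overlapped, with MTR4 KD replicate 2 above control replicate 1. The log2 fold change was -0.083 (SE 0.047, adjusted p = 0.248, edgeR), and -0.049 and -0.12 within the batches. The annotated TF transcripts overlap SRPRB and a long noncoding RNA gene on the same strand, and how reads in the overlap were counted was not examined.

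SLC11A2 encodes DMT1, the proton-coupled carrier that brings ferrous iron out of endosomes. It (ENSG00000110911, chromosome 12, 50952263 to 51028886) was at 140.7, 151.1 and 131.8 CPM in the control libraries and at 122.3, 114.5 and 97.8 CPM in the MTR4 KD libraries. All MTR4 KD values were below all control values. Means were 141.2 ± 9.66 and 111.5 ± 12.5 CPM (SD, n = 3 each), with a log2 fold change of -0.41 (SE 0.049, adjusted p = 6.52e-05, edgeR). The log2 difference was -0.48 and -0.35 within the batches. Without the batch term the adjusted p was 0.121 (edgeR), with a log2 fold change of -0.34.

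SLC40A1, which encodes ferroportin, moved the opposite way to the importer. SLC40A1 (ENSG00000138449, chromosome 2, 189560590 to 189580786) was at 164.8, 184.5 and 153.6 CPM in the control libraries, and at 296.6, 293.4 and 236.0 CPM in the MTR4 KD libraries. Every MTR4 KD library was above every control library. Means were 167.6 ± 15.6 and 275.3 ± 34.1 CPM (SD, n = 3 each), with a log2 fold change of 0.62 (SE 0.045, adjusted p = 9.51e-07, edgeR), or 1.54-fold. The log2 difference was 0.57 and 0.68 within the batches.

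Of the regulators, IREB2 encodes the iron regulatory protein whose level is set by its iron-dependent degradation. IREB2 (ENSG00000136381, chromosome 15, 78437431 to 78501453) was at 122.8, 132.1 and 112.0 CPM in the control libraries and at 135.2, 137.2 and 138.8 CPM in the MTR4 KD libraries. The groups did not overlap, but the log2 fold change was 0.14 (SE 0.052, adjusted p = 0.0736, edgeR). It was 0.24 within the multi-mapped and 0.044 within the uniquely mapped batch. Without control replicate 2 it was 0.24 and passed the test (adjusted p = 0.0120, edgeR), and without MTR4 KD replicate 3 it was 0.056 (adjusted p = 0.623).

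HAMP, the hepcidin gene, had at most 24 reads in any library. It (ENSG00000105697, chromosome 19, 35282528 to 35285143) had 13, 23 and 19 reads in the control libraries and 3, 11 and 24 reads in the MTR4 KD libraries. The lowest and the highest count were both in the MTR4 KD group. The log2 fold change was -0.40 (SE 0.55, adjusted p = 0.676, edgeR). Without control replicate 2 it turned to 0.57 (adjusted p = 0.648, edgeR).

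**Figure D3:**
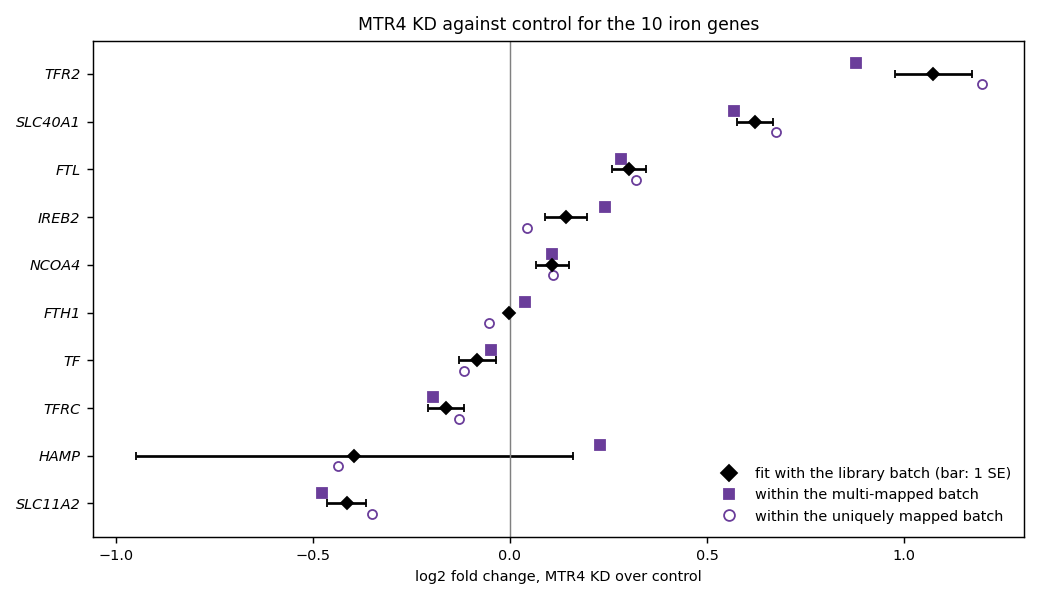
Log2 fold change of MTR4 KD over control for the 10 iron genes, from the fit with the library batch (diamonds, bars of 1 SE, no bar for FTH1), and as the difference of mean log2(CPM + 0.5) within each batch (squares for multi-mapped, circles for uniquely mapped). TFR2 is highest at 1.07 and SLC11A2 lowest at -0.41, and HAMP alone apart from FTH1 has its batches on opposite sides of 0.

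Over the 9 tested genes, 4 had all MTR4 KD libraries above all control libraries and 1 had them below, beside 12.1% and 12.6% of all tested genes. The effect of MTR4 knockdown was also compared between the batches with an interaction term. No iron gene passed it (adjusted p between 0.387 and 0.995, edgeR), and 0.974% of all genes did. For TFR2 the effect differed by -0.48 on the log2 scale without control replicate 3 (adjusted p = 0.0445, edgeR), and for IREB2 by 0.26 without control replicate 1 (adjusted p = 0.0497, edgeR).

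The wider machinery of iron handling was given by 7 lists with 106 genes, of which 99 were tested. Of these, 15 rose, 14 fell and 70 did not pass the test. This was 29.3% called, beside 20.2% of all genes, and the median log2 fold change was 0.012. Without the batch term BMP2, IBA57, ALAD and HPX (4 genes) rose and CP and LCN2 (2 genes) fell, and the calls of all other list genes named here were lost. The largest changes among the called genes were those of LCN2, CP, HPX and BMP6.

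Among 15 tested partners of uptake, reduction and export, 2 rose and 3 fell (median log2 fold change -0.11). This was 33.3% called, beside 20.2% of all genes. CP encodes ceruloplasmin, the copper ferroxidase that oxidizes the iron released by ferroportin. CP was at 303.8, 330.8 and 304.4 CPM in the control libraries and at 106.2, 103.8 and 102.1 CPM in the MTR4 KD libraries, far apart. Its log2 fold change was -1.62 (SE 0.041, adjusted p = 1.69e-10, edgeR), and -1.57 and -1.65 within the batches. So the mRNAs of the exporter and of its ferroxidase partner moved in opposite directions. LCN2, which encodes a binder of iron-laden siderophores, was at 2.50, 2.22 and 2.77 CPM in the control libraries and at 0.473, 0.389 and 0.555 CPM in the MTR4 KD libraries (log2 fold change -2.31). LRP2, the endocytic receptor megalin, fell by 0.56 on the log2 scale, but control replicate 2 decided the call (adjusted p = 0.139 without it, edgeR). SLC39A14, which encodes the ZIP14 carrier of free iron and is abundant in hepatocytes, rose by 0.25 on the log2 scale, a call lost without the batch term (adjusted p = 0.0824, edgeR). SCARA5, a receptor for ferritin, rose by 0.32, and its call was lost without control replicate 2 (adjusted p = 0.219, edgeR).

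Of 20 tested genes of hepcidin control, 2 rose and 6 fell (median 0.020). This was 40% called, beside 20.2% of all genes. BMP6 and BMP2 are the ligands that drive hepcidin transcription through SMAD proteins, and they moved apart. BMP2 was at 11.3, 10.0 and 11.7 CPM in the control libraries and at 17.3, 16.1 and 16.8 CPM in the MTR4 KD libraries (log2 fold change 0.64, adjusted p = 7.17e-05, edgeR). BMP6 was at 1.57, 2.18 and 2.82 CPM in the control libraries and at 0.538, 0.719 and 1.60 CPM in the MTR4 KD libraries, with overlap between the groups. The BMP6 log2 fold change of -1.10 (adjusted p = 0.0206, edgeR) was -0.46 without control replicate 2 (adjusted p = 0.407), and the call was also lost without control replicate 3 (0.0852) and MTR4 KD replicates 1 (0.0769) and 2 (0.0525). ERFE, the erythroferrone gene, fell by 0.48 on the log2 scale, and IL6R, the receptor chain for the inflammatory inducer of hepcidin, fell by 0.31. The groups of both overlapped in CPM, and without the batch term neither passed (adjusted p = 0.145 and 0.264, edgeR). The receptor gene BMPR2 rose by 0.16, a call lost without control replicates 2 (adjusted p = 0.423, edgeR) and 3 (0.0885) and MTR4 KD replicates 1 (0.142) and 2 (0.0945).

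Of 6 genes around the iron sensors, 2 fell and 0 rose (median -0.042). This was 33.3% called, beside 20.2% of all genes. EPAS1, the HIF2A gene whose mRNA itself carries an iron-responsive element, was at 271.8, 226.6 and 259.7 CPM in the control libraries and at 192.2, 194.8 and 210.3 CPM in the MTR4 KD libraries. Its log2 fold change was -0.28 (adjusted p = 0.000545, edgeR), and the call was lost without the batch term (0.0779). HIF1A had one of -0.13 and an adjusted p of 0.0474 (edgeR), and none of the 14 alternative fits kept it under 0.05. Of 10 tested genes of iron storage, chaperones and ferritin turnover (10% called beside 20.2% of all genes), 1 fell and 0 rose (median -0.027). This was GLRX3, a glutaredoxin that carries iron-sulfur clusters, with a log2 fold change of -0.18 (adjusted p = 0.00571, edgeR), and its call was lost without control replicate 2 (0.0607).

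Of 12 genes of heme breakdown and transport, 5 rose and 0 fell (median 0.17), beside 9.43% and 10.8% of all genes, and 1 rose without the batch term. HPX, the plasma scavenger of free heme, was at 35.1, 34.6 and 35.0 CPM in the control libraries and at 73.5, 76.9 and 81.2 CPM in the MTR4 KD libraries. The log2 fold change was 1.17 (SE 0.048, adjusted p = 1.01e-08, edgeR). HMOX1, the inducible heme oxygenase that frees iron from heme, was at 119.0, 86.8 and 103.4 CPM in the control libraries and at 132.7, 132.7 and 145.3 CPM in the MTR4 KD libraries (log2 fold change 0.50). SLC46A1, a carrier of folate and heme, rose by 0.45. Without the batch term HPX kept its call (adjusted p = 0.000505, edgeR), whereas HMOX1 and SLC46A1 did not (adjusted p = 0.116 and 0.226).

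Of 8 tested genes of heme synthesis, 2 rose and 1 fell (median 0.0029). This was 37.5% called, beside 20.2% of all genes. ALAD, the enzyme that forms porphobilinogen, was at 73.7, 79.0 and 75.9 CPM in the control libraries and at 121.6, 126.6 and 121.0 CPM in the MTR4 KD libraries. Its log2 fold change was 0.67 (SE 0.041, adjusted p = 1.91e-07, edgeR), and 0.69 and 0.65 within the batches. ALAS1, the rate-limiting enzyme of heme synthesis in liver, fell by 0.16 on the log2 scale (adjusted p = 0.0149, edgeR), and UROS rose by 0.17 (adjusted p = 0.0440). The ALAS1 call was lost without control replicate 1 (0.0527) and MTR4 KD replicates 1 (0.0681) and 3 (0.215). The UROS call held in only 1 of the 6 fits that left out a library, the one without MTR4 KD replicate 3.

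Of 28 tested genes of mitochondrial iron and iron-sulfur cluster assembly, 4 rose, 1 fell and 23 did not pass the test (median 0.052). This was 17.9% called, below the 20.2% of all genes. IBA57, a late-acting mitochondrial assembly factor, was at 13.8, 14.3 and 13.9 CPM in the control libraries and at 19.7, 20.5 and 17.4 CPM in the MTR4 KD libraries (log2 fold change 0.41, adjusted p = 0.000885, edgeR). The log2 fold changes of ISCU, the assembly scaffold, and of CIAO3, of the cytosolic pathway, were 0.19 and 0.20. MMS19, which hands clusters to nuclear enzymes, fell by 0.19. The calls of ISCU, CIAO3 and MMS19 were each lost when some single libraries were left out, with adjusted p up to 0.0891, 0.229 and 0.200 (edgeR).

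**Figure D4:**
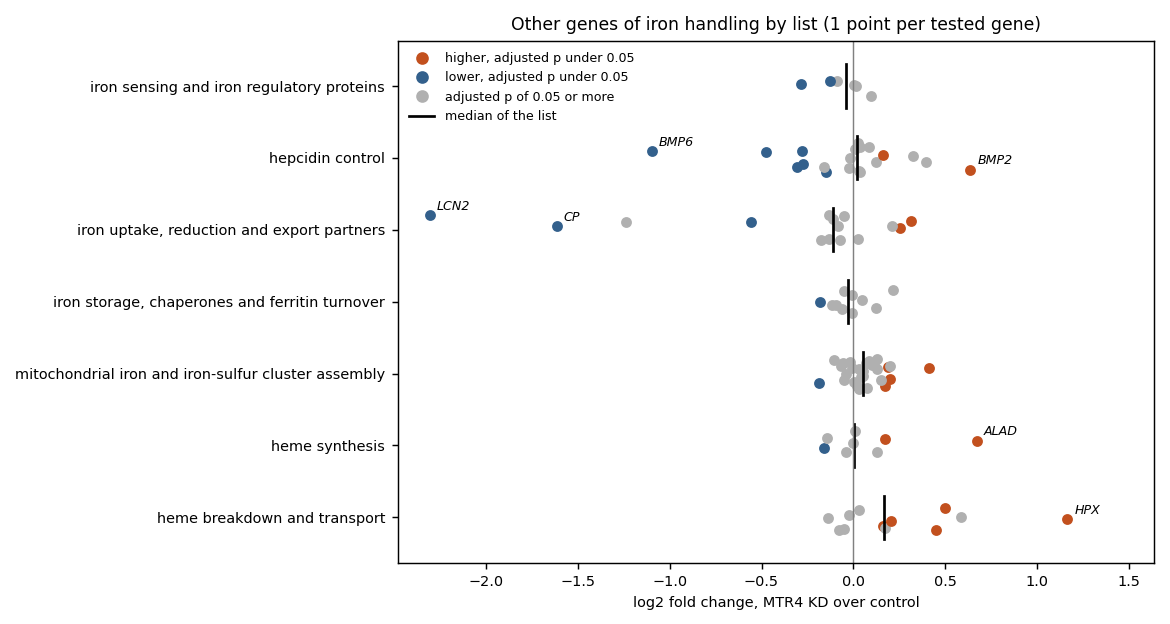
Log2 fold change of MTR4 KD over control for the 99 tested genes of 7 iron handling lists, with 1 point per gene, colored where the adjusted p was under 0.05, and a bar at the median of each list. Points lie mostly near 0, with LCN2 (-2.31), CP (-1.62) and BMP6 (-1.10) to the left and HPX (1.17) to the right.

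**Figure D5:**
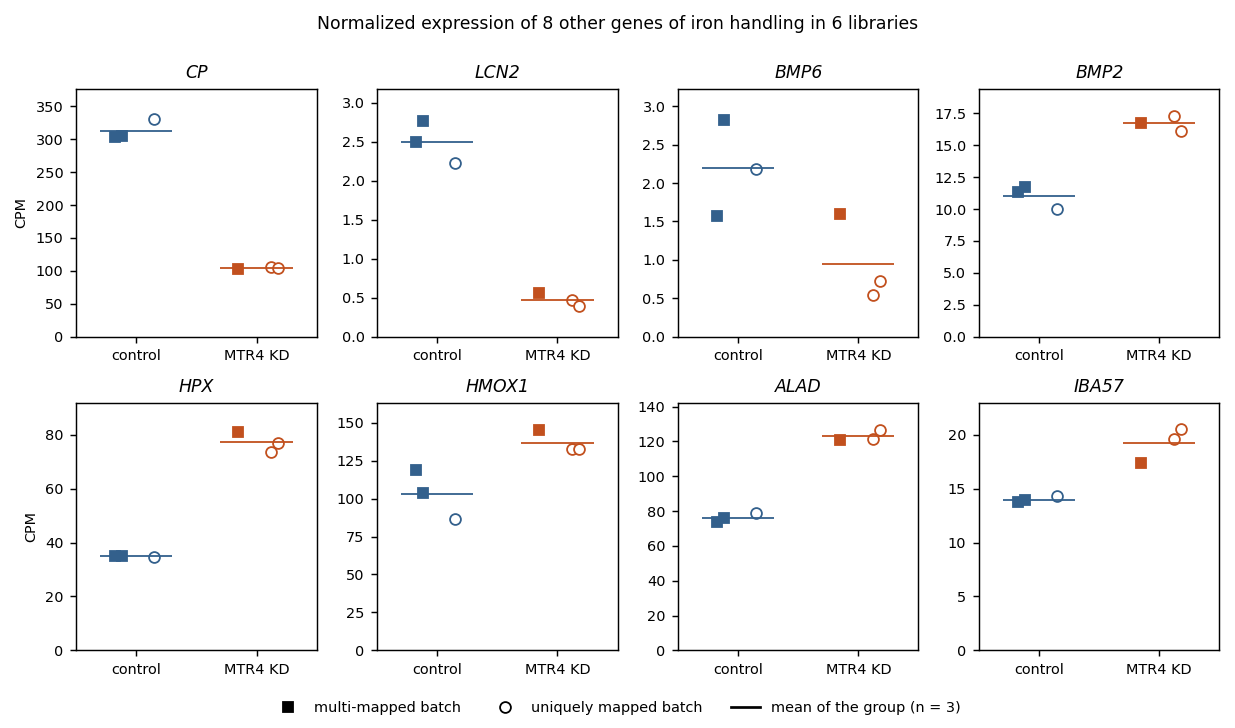
Normalized expression (CPM, linear axis from 0) of 8 genes of the iron handling lists, picked from the named ones after their values were seen, in each library, with squares for the multi-mapped and circles for the uniquely mapped batch, and a line at the mean of each group. All genes shown except BMP6 have no overlap between control and MTR4 KD, as have 12.1% (MTR4 KD above) and 12.6% (below) of all tested genes.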

How the data were processed

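RNA-seq counts of 3 control and 3 MTR4 KD libraries of PLC/PRF/5 cells were used. The authors deposited raw read counts per Ensembl gene, without normalization, and the number of reads on no gene. The submitters' processing notes name HISAT2 2.1.0, HTSeq, DESeq2 and GRCh38, and the strand setting of the counting is not given in the sources used here. The 5 classes of reads on no gene were left out of library sizes and tests. Reads of non-unique alignment were 14.8% to 37.5% of all entries, those ambiguous between genes 5.89% to 8.29% and those on no feature 2.51% to 3.10%, those of low alignment quality 1.62% to 5.73% and those not aligned 1.33% to 5.96%. A library with over 30% non-unique reads was put in the multi-mapped batch and the others in the uniquely mapped batch. The other classes of reads on no gene also differed between these batches without overlap.

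Symbols came from GENCODE v44 lifted to GRCh37 (56959 of 60675 genes matched), and gene positions from RefSeq on GRCh38. Genes were kept by filterByExpr (minimum 10 counts), which all 10 iron genes passed, and scaled by TMM. They were tested with edgeR 4.0.16 in R 4.3.3, with condition and library batch as terms, and a call needed an adjusted p-value (Benjamini-Hochberg) under 0.05. Standard errors were derived from the F statistic. Within-batch values are differences of mean log2(CPM + 0.5), which understate the change of low genes. With 3 libraries against 3, an exact permutation test of a single gene cannot go below p = 0.1 and was not used. Copies in the genome were sought with blastn 2.17.0 (megablast).

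Members, lists, the batch split and the tests were chosen with earlier results of these data known. Named genes are the 10 members, MTR4, and of each list at most 3 per direction with the largest change among those called. Other genes are named for markers, overlaps, likeness to FTH1 or a difference between batches. The fits were tested on simulated counts with known changes. Alternatives were no batch term, the replicate number as a block, DESeq2 1.42.0 size factors, total counts, no filter, DESeq2's Wald test, limma-voom (limma 3.58.1), and each library left out.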

Additional observations from a re-analysis of the deposited data

Results flagged for a closer look

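An interaction of condition and library batch passed edgeR's quasi-likelihood test for 4 genes of the iron lists and cell type markers, named after their values were seen. In the lists, 2 of 99 tested genes passed it, beside 0.974% of all tested genes. The others were among the 12 hepatocyte or HCC, 3 fibroblast and 1 endothelial markers tested. The uniquely mapped batch held 1 control library and the multi-mapped batch 1 MTR4 KD library, so a single library can set each value, and a differing effect of MTR4 knockdown cannot be told apart from that. The difference of the log2 fold change (multi-mapped minus uniquely mapped batch) was -0.33 for FURIN, a protease that processes hepcidin (adjusted p = 0.0381), and -0.63 for LRP1, the receptor for the heme-hemopexin complex (adjusted p = 0.0156). FURIN was at 489.8 CPM in control replicate 2 and at 559.9 to 668.1 CPM in the other libraries. It was 1.33 for COL1A1 (adjusted p = 0.0137) and 7.94 for COL1A2 (adjusted p = 3.01e-07), a pair of fibroblast collagens. COL1A2 was at 4.67 CPM in control replicate 2 and at 0.0326 to 1.03 CPM in the other libraries.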

How the results depend on the processing

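The number of genes past the threshold was 3649 with the library batch and 650 without it, that of the 9 tested iron genes 5 and 2, and that of the list genes 29 and 6. The correlation of same-numbered libraries' deviations from the group means across genes was -0.41, 0.50 and 0.53, and they did not all correlate best with their own number. These values followed the batch: they were 0.50 to 0.54 for libraries of the same batch and -0.65 to -0.40 across batches. Whether the replicate number pairs the libraries therefore cannot be told from them. With the replicate block in place of the library batch, 857 genes, 3 iron genes and 9 list genes were called, and with both terms 2128, 4 and 17. The interaction was called for 176 genes, for 493 without a filter and for 112 with DESeq2's Wald test. With each library left out in turn, the calls ranged from 2409 to 2947 genes, from 4 to 6 iron genes and from 18 to 27 list genes, and those of the interaction from 257 to 611 genes and from 0 to 1 iron gene. It could not be fitted without control replicate 2 or MTR4 KD replicate 3. The lowest gene and list counts came without MTR4 KD replicate 1 and the highest interaction count without control replicate 1. HAMP ranged from -1.52 (without MTR4 KD replicate 3) to 0.57 (without control replicate 2), against -0.40. IREB2 was called without a filter (adjusted p = 0.0399, edgeR). TFR2 and SLC40A1 kept direction and call in all 14 alternative fits. The cause of these changes was not tested, and the fits that left out a library also rested on fewer libraries. HAMP had at most 24 reads per library, and what change this depth can show was not tested.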

Other observations

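HBB, the beta-globin gene and an erythroid marker, was at 17.7 CPM in MTR4 KD replicate 1, at 0.0749 and 0.0326 CPM in MTR4 KD replicates 2 and 3, and at 0 in every control library. HBA1 was at 0.554 CPM in MTR4 KD replicate 1 and at most at 0.0414 CPM elsewhere. Both genes failed the filter on low counts and were not tested.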
